A study of Populus yunnanensis and Populus davidiana with 24 samples.

Results

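In poplar cutting stems, 133 of 43836 gene identifiers reached 1 FPKM or more in all 12 libraries of Populus yunnanensis and were listed at 0 in all 12 libraries of Populus davidiana. FPKM is a fragment count corrected for gene length and library size. The members were chosen by these values alone, so their difference between the species is a description and carries no test. Their levels among themselves and their course over time in P. yunnanensis are given below.

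Stem RNA came from leafless and budless cuttings of annual branches, sampled at 0, 48, 96 and 120 h, with 3 replicate libraries per species and time, 24 libraries in 8 groups. All groups carry the treatment label cutting, with no further agent, genotype or clone. The labels do not say whether replicates came from separate plants, so spread and p-values cover these libraries and may be technical. The table does not pair identifiers with gene names, and no genome was used. The members are therefore named by identifier, without a function, and the stem label was not checked against marker genes.

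P. yunnanensis is a balsam poplar and P. davidiana an aspen. Hardwood cuttings of balsam poplars commonly form adventitious roots with ease, whereas those of aspens commonly root poorly, and such roots arise from cells in and near the vascular cambium of the stem. Related species can differ in which genes they carry and in which they transcribe. In a table made for both species, a listed 0 can also come from fragments that were not assigned to a gene model because the sequences differ. Which of these applied to each of the 133 genes was not tested.

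Genes present throughout in P. yunnanensis were seldom listed at 0 throughout in P. davidiana. The 133 members were 0.844% of the 15751 genes at 1 FPKM or more in all 12 P. yunnanensis libraries. Another 772 of these genes were at 0 in 1 to 11 P. davidiana libraries, and 14846 were above 0 in all 12. The numbers were not symmetrical. The opposite pattern, 0 throughout in P. yunnanensis beside 1 FPKM or more throughout in P. davidiana, was held by 13 genes, 0.0864% of the 15052 genes at that level throughout in P. davidiana.

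**Figure D1:**
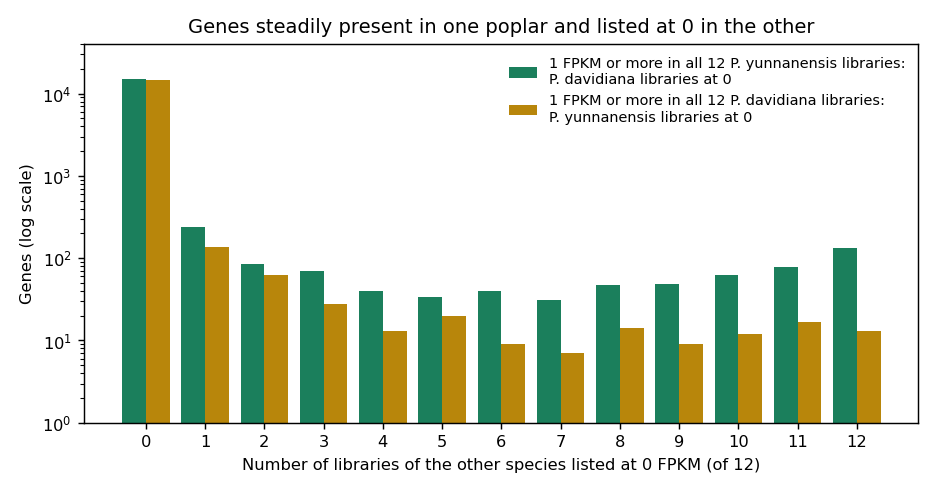
Number of genes (log scale) by how many libraries of the other species listed them at 0 FPKM. Green bars are genes at 1 FPKM or more in all 12 P. yunnanensis libraries and gold bars those at 1 FPKM or more in all 12 P. davidiana libraries. At 12 libraries the green bar stands at 133 and the gold bar at 13.

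The depth of mapped fragments was estimated from the ratios of low FPKM values in 1 P. yunnanensis library at 96 h to those in each library. It had a median of 0.951 in P. yunnanensis (0.831 to 1.11) and of 0.734 in P. davidiana (0.622 to 0.831). The absolute number of fragments is unknown, so no counting limit is given for the listed zeros. Single zeros also occurred in abundant genes. Exactly 1 library was at 0 in 90 genes that averaged 10 FPKM or more over the 24 libraries. The part of depth, of such zeros and of sequence differences from the gene models was not tested, in the counts above or in their asymmetry.

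The thresholds of the choice cut through a continuous range. Just inside stood Potri.012G096050.v3.1, Potri.008G001200.v3.1 and Potri.001G250300.v3.1, whose lowest P. yunnanensis values were 1.003, 1.004 and 1.01 FPKM. Just outside, at 0 in P. davidiana as well, stood Potri.014G153500.v3.1, Potri.001G056500.v3.1 and Potri.013G106500.v3.1, with lowest values of 0.994, 0.988 and 0.984 FPKM. On the other side, Potri.007G057900.v3.1 was left out for a single highest value of 0.012 FPKM in P. davidiana, beside at least 5.04 FPKM in every P. yunnanensis library. Potri.001G027232.v3.1 and MSTRG.18655 were left out for highest P. davidiana values of 0.029 FPKM each. In all, 53 genes missed the P. yunnanensis minimum in 1 library alone, and 50 genes at 1 FPKM or more in P. yunnanensis were above 0 but under 0.1 FPKM throughout in P. davidiana.

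Most members were transcripts of low level. Their mean over the 12 P. yunnanensis libraries ran from 1.73 to 65.4 FPKM, with a median of 5.39, against a median of 18.4 FPKM for the other 15618 genes at 1 FPKM or more in all these libraries. Of the members 73 averaged at least 5 FPKM, 29 at least 10 and 7 at least 20. Together they made up 0.107% to 0.178% of the summed FPKM of a P. yunnanensis library. The lowest value of a member was under 1.5 FPKM in 35 of the 133 and at least 10 FPKM in 7.

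**Figure D2:**
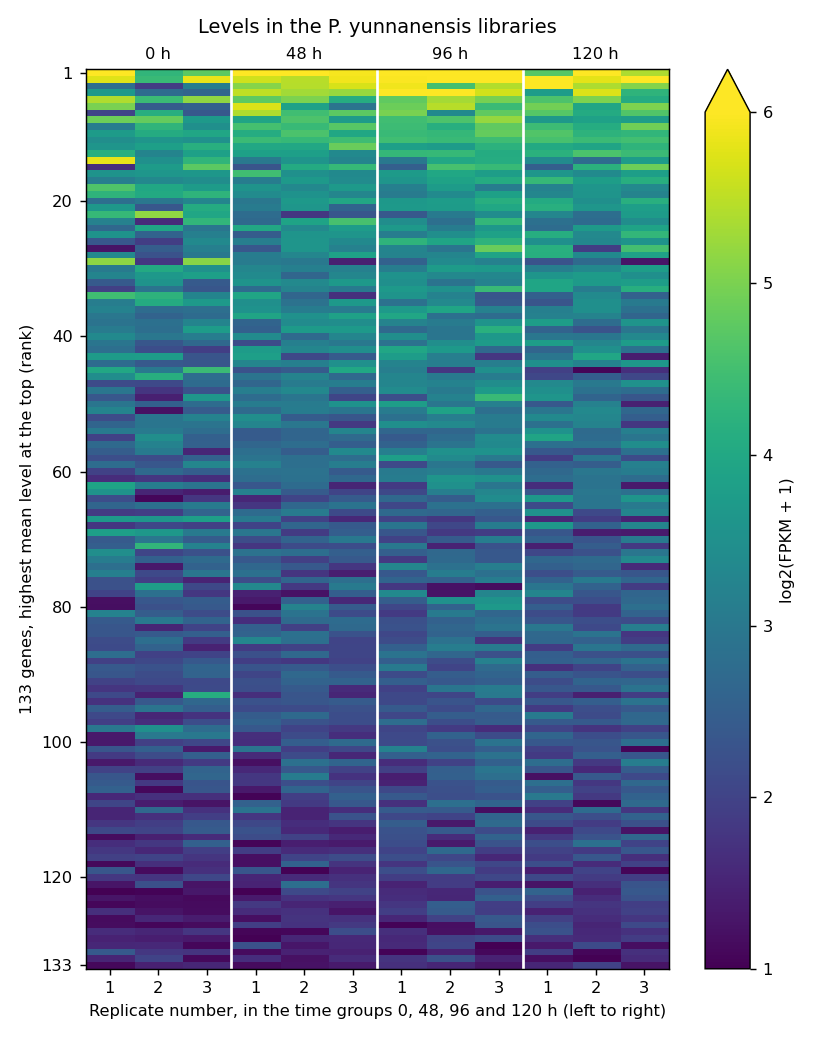
Levels of the 133 members as log2(FPKM + 1) in the 12 P. yunnanensis libraries, 3 replicates at each of 0, 48, 96 and 120 h from left to right. Rows run from the highest mean level, 65.4 FPKM, at the top to the lowest, 1.73 FPKM, at the bottom.

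The member with the highest mean was Potri.005G015051.v3.1. It stood at 72.6, 18.6 and 25.7 FPKM at 0 h, at 174, 63.7 and 60.2 at 48 h, at 81.7, 65.3 and 79.0 at 96 h, and at 25.1, 78.6 and 40.6 at 120 h. A single library, 48 h replicate 1, was far above the rest, and every later time overlapped with 0 h. Relative to 0 h it differed on the log2 scale by 1.39 at 48 h (SE 0.63, adjusted p = 0.255), 1.17 at 96 h (SE 0.58, adjusted p = 0.196) and 0.39 at 120 h (SE 0.59, adjusted p = 0.657), none of which passed the test.

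The assembled locus MSTRG.2505, second by mean level, was steadier. It had 52.9, 19.8 and 56.4 FPKM at 0 h, 48.6, 42.9 and 58.6 at 48 h, 61.6, 65.5 and 74.1 at 96 h, and 74.5, 54.6 and 69.7 at 120 h. Only 0 h replicate 2 was under 40 FPKM. The other members averaging 20 FPKM or more were Potri.016G121600.v3.1 (34.4 ± 22.0 FPKM), Potri.016G131600.v3.1 (33.6 ± 22.1), Potri.005G046600.v3.1 (28.1 ± 8.28), MSTRG.36481 (23.3 ± 15.3) and Potri.006G102900.v3.1 (20.3 ± 11.2; SD over the 12 libraries in each case). Ranks 8 to 10 were held by Potri.019G017300.v3.1, Potri.014G176200.v3.1 and Potri.005G126500.v3.1, with means of 19.7, 19.4 and 18.6 FPKM.

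Relative spread was wide for most members. The coefficient of variation over the 12 libraries, times included, had a median of 40.3% in the members and of 33.9% in the other genes at 1 FPKM or more, and the median ratio of the highest to the lowest library was 4.01 and 3.35. Within a time, the median SD of log2(FPKM + 1) was 0.41, 0.39, 0.37 and 0.37 in the members at 0, 48, 96 and 120 h, and 0.44, 0.34, 0.25 and 0.26 in the other genes, which stood at higher levels. The 3 steadiest members were MSTRG.19040 (2.63 ± 0.450 FPKM, coefficient of variation 17.1%), Potri.002G212300.v3.1 (4.22 ± 0.739, 17.5%) and Potri.004G090732.v3.1 (4.22 ± 0.844, 19.99%; SD over 12 libraries). At the other end, the highest coefficient of variation of a member was 114.9%. By the ratio of the highest to the lowest library, Potri.016G121600.v3.1 ranged most, 27.7-fold, from 2.69 to 74.5 FPKM (coefficient of variation 63.8%).

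The members were unevenly spread over the classes of identifier, a property that the choice did not use. Assembled loci, named MSTRG in the table, made up 22 of the 133 members (16.5%) and 172 of the 15618 other genes (1.10%). Identifiers with the letter T, which carry no chromosome number, made up 13 members (9.77%) and 301 other genes (1.93%). The remaining 98 members (73.7%) and 15145 other genes (96.97%) carried a chromosome number from 1 to 19.

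Most identifiers with a number are numbered in steps of 100, and others fall in between. Of the 111 members with such a number 23 (20.7%) fell in between, and 367 of 15446 other genes did (2.38%). These shares also stood between those values in the 772 genes at 0 in 1 to 11 P. davidiana libraries, where 6.09% were assembled loci, 7.25% had the letter T and 8.28% of the numbered identifiers fell in between. The order was the same at low level. Among genes averaging under 10 FPKM, 17.3% of 104 members were assembled loci, against 1.73% of 3996 genes above 0 in all P. davidiana libraries, and 22.1% and 3.49% of the numbered identifiers fell in between. These are shares of genes, which are not independent replicates, and no test was made of them. Assembled loci and numbers in between were not particular to the members. Among the 13 genes of the opposite pattern, the assembled loci were MSTRG.23636 and MSTRG.30676. The numbered ones that fell in between there were Potri.006G271560.v3.1 and Potri.016G012150.v3.1.

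**Figure D3:**
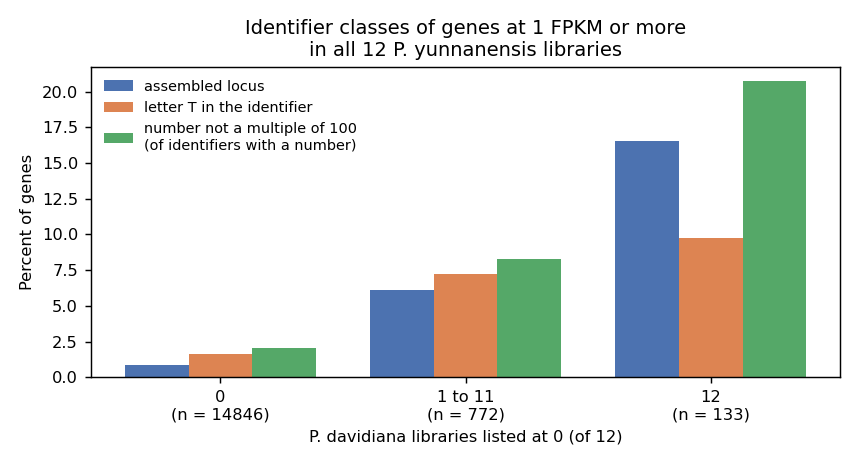
Percent of genes in 3 classes of identifier, by how many of the 12 P. davidiana libraries listed the gene at 0, among genes at 1 FPKM or more in all 12 P. yunnanensis libraries. The bars at 12 are the 133 members, of which 16.5% were assembled loci, against 0.842% of the genes above 0 in every P. davidiana library.

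The classes lay close together in level within the members. The median of the mean level was 5.42 FPKM over the 98 members with a chromosome number, 5.39 over the 13 with the letter T and 5.35 over the 22 assembled loci. Of the 2 members with a mean above 50 FPKM, one was numbered in between the steps and the other was an assembled locus.

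By chromosome number, 14 members carried a 5, which was 1.30% of the genes on that chromosome at 1 FPKM or more throughout in P. yunnanensis. The share was 1.54% on chromosome 19 (6 members), 1.49% on chromosome 11 (8 members), 1.17% on chromosome 16 (6 members) and 1.03% on chromosome 18 (6 members). Over the numbered chromosomes together it was 0.643%. It was 0.496% on chromosome 1, the chromosome with the most such genes, where 9 members lay. Chromosome 13 held 578 such genes and 0 members.

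Members did not form runs of consecutive identifiers on the numbered chromosomes. None of the 98 had another member as its nearest listed neighbour, although 16 (16.3%) had another member within 10 listed identifiers, against 689 of 15145 other genes (4.55%) with a member that close. The 196 neighbours on either side were at 0 in all P. davidiana libraries in 33.2% of cases, and 29.3% of the neighbours of the other genes were. Neighbours at 1 FPKM or more in all 12 P. davidiana libraries made up 30.1% beside members and 39.9% beside other genes. Both neighbours were at that level in P. davidiana in 9 of 98 members (9.18%) and in 16.6% of other genes, and both were at 0 there in 10 members (10.2%) and in 8.68% of other genes.

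Some members lay close to genes with the opposite pattern, which were singled out after their values were seen. Of the 98 members 4 (4.08%) had one of the 13 genes of the opposite direction within 10 listed identifiers, and 61 of 15145 other genes did (0.403%). Of the 13 genes, MSTRG.23636 and MSTRG.30676 carry no chromosome number and could not be counted here. Potri.011G073100.v3.1, at 0 in P. yunnanensis and at 3.91 to 12.7 FPKM in P. davidiana, was 1 identifier from the member Potri.011G073180.v3.1, which had 1.23 to 5.39 FPKM in P. yunnanensis, and 4 from the member Potri.011G072566.v3.1, which had 3.28 to 10.6 FPKM. The member Potri.004G061000.v3.1 averaged 9.96 FPKM in P. yunnanensis, and Potri.004G060500.v3.1, 5 identifiers away, averaged 11.97 FPKM in P. davidiana. The member Potri.005G035800.v3.1 averaged 15.8 FPKM in P. yunnanensis, and Potri.005G035000.v3.1, 8 identifiers away, averaged 19.1 FPKM in P. davidiana. That each gene of such a pair was at 0 throughout in a different species follows from how both sets were chosen. It is not a result of its own.

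A similar pair stood at a higher level. The member Potri.005G132101.v3.1 had a lowest, median and highest value of 5.83, 10.7 and 55.3 FPKM in P. yunnanensis, and its next listed neighbour, Potri.005G132201.v3.1, had 0, 0.074 and 1.29 FPKM there. In P. davidiana the member was at 0 and the neighbour had 73.5, 143 and 285 FPKM. Without a genome, whether such neighbours are copies of one another was not tested.

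The comparison over time asked whether members changed in P. yunnanensis stems after 0 h. Each change was estimated with limma on log2(FPKM + 1) in the 12 P. yunnanensis libraries, and genes with an adjusted p under 0.05 over all 23117 genes tested are called changed. All 133 members were tested. A member had to stay at 1 FPKM or more in every library, so falls below 1 FPKM and onsets from 0 could not occur. The other 15618 genes with that same minimum are given beside the members.

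Most members were not called changed at any time. Against 0 h, 117 of 133 members (88%) were called at none of the 3 later times, as were 77% of the other genes with the same minimum. Of the remaining 16 members 10 rose at 1 or more times and 6 fell at 1 or more times, and none did both. At least 1 rise was called in 7.52% of members and in 18.2% of the other genes, and at least 1 fall in 4.51% and 4.75%. A test that was not passed does not show that a member was constant. The lower level of the members and their wider spread within 48, 96 and 120 h are given above. The part of either in these shares was not tested.

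At 48 h 3 members rose and 1 fell (4 of 133, 3.01%). Over all genes tested 4.78% were called, 2.88% as rises and 1.9% as falls, and over the other genes with the same minimum 4.97%, with 3.35% and 1.62%. At 96 h there were 7 rises and 4 falls among the members (8.27%), beside 13.1% of all genes tested (10% rises, 3.1% falls) and 14% of those other genes (11.2% and 2.74%). At 120 h there were 8 rises and 5 falls (9.77%), beside 19.2% of all genes tested (14.7% rises, 4.55% falls) and 20.7% of those other genes (16.6% and 4.12%). The members' share of rises was near both backgrounds at 48 h (2.26%, 3 genes) and below them at 96 and 120 h (5.26% and 6.02%). Their share of falls, 0.752%, 3.01% and 3.76%, was near both at 96 and 120 h. The lower share of rises at 96 h depended on 1 library. Without 0 h replicate 2 it was 5.26% in the members, beside 5.24% of all genes tested and 5.93% of those other genes. At 120 h that fit gave 5.26%, beside 8.2% and 9.12%. The backgrounds were not matched for level: the median was 5.39 FPKM in the members and 18.4 FPKM in those other genes. The part of level in these shares was not tested.

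These counts were small and moved with single libraries, as did those over all genes. At 48 h, omitting 48 h replicate 3 left 0 calls, and omitting 48 h replicate 2, 0 h replicate 1 or 0 h replicate 3 left 1 (0.752%). Over all genes tested 2.01%, 2.47%, 2.42% and 2.07% were called in these fits, in that order. At 96 h, 5 calls (3.76%) were left on omitting 0 h replicate 1 or 3, and 6 (4.51%) on omitting 96 h replicate 2. Omitting 0 h replicate 2 or 48 h replicate 3 left 7 (5.26%). Over all genes tested 6.01%, 6.13%, 7.66%, 7.62% and 12.5% were called in these fits, in that order. At 120 h, the number became 31 on omitting 120 h replicate 2, 5 on omitting 120 h replicate 1 or 0 h replicate 3, and 3 on omitting 120 h replicate 3 or 0 h replicate 1. In the fit without 120 h replicate 2 this was 23.3% of members beside 31.6% of all genes tested. It was 2.26% beside 8.82% without 120 h replicate 3, and 2.26% beside 7.57% without 0 h replicate 1. Without 120 h replicate 1 it was 3.76% beside 8.85%, and without 0 h replicate 3 it was 3.76% beside 8.91%. With the replicate number as a block 2 members were called at 48 h (1.5%), beside 3.22% of all genes tested.

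The median log2 change of the members was 0.11 at 48 h, 0.40 at 96 h and 0.26 at 120 h. It was 0.17, 0.36 and 0.39 in the other genes with the same minimum, and 0.13, 0.36 and 0.38 over all genes tested, so all genes together moved upwards as deposited. Rescaling by the median ratio of genes brought the median of all genes to within 0.02 of 0 and that of the members to -0.03, 0.04 and -0.13. The balance of calls depended on the scaling, in the members and in all genes. With median ratio scaling the members had 1 rise beside 1 fall at 48 h, 4 beside 5 at 96 h, and 2 beside 8 at 120 h. Over all genes tested with that scaling, rises and falls were 2.09% and 2.5% at 48 h, 4.46% and 5.19% at 96 h, and 6.31% and 7.53% at 120 h. Quantile normalization gave the members 1 rise beside 1 fall, 4 beside 6, and 2 beside 8. There, all genes tested kept more rises than falls, with 2.78% and 2.48% at 48 h, 6.52% and 5.17% at 96 h, and 9.52% and 7.04% at 120 h.

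**Figure D4:**
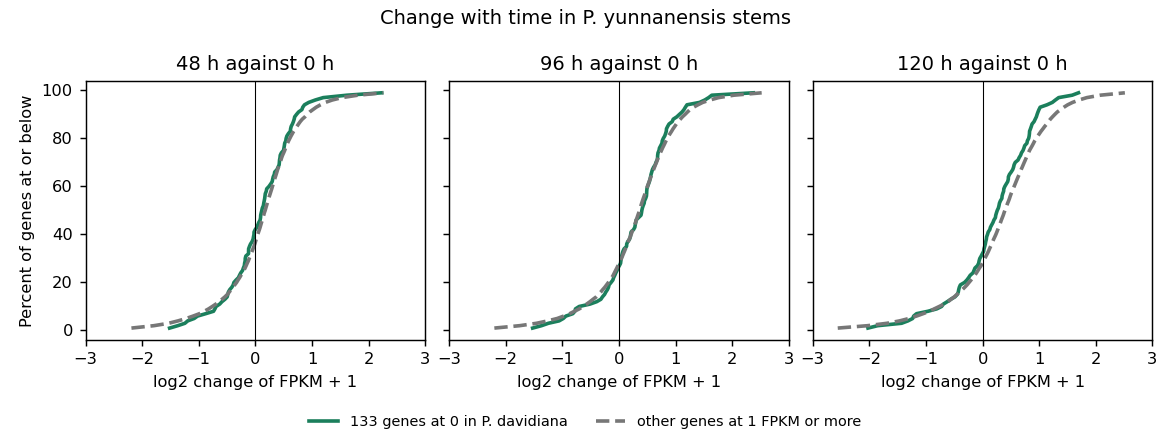
Cumulative percent of genes by log2 change of FPKM + 1 against 0 h in P. yunnanensis, at 48, 96 and 120 h. The solid green line is the 133 members and the dashed grey line the other 15618 genes at 1 FPKM or more in all 12 libraries. Their medians are 0.11 and 0.17 at 48 h, 0.40 and 0.36 at 96 h, and 0.26 and 0.39 at 120 h.

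A larger share of members than of other genes had its highest mean level at 96 h under both scalings, which was not tested. As deposited, 25 members had their highest mean at 0 h, 15 at 48 h, 50 at 96 h and 43 at 120 h. The share at 96 h was 37.6% in members and 23.2% in the other genes, and that at 120 h was 32.3% and 41.6%. With median ratio scaling the shares at 96 h were 22.6% and 11.6%, those at 120 h were 13.5% and 23.1%, and those at 0 h were 40.6% and 40.9%. The median level of the members as deposited was 4.77, 4.99, 6.47 and 5.33 FPKM at 0, 48, 96 and 120 h. At 120 h against 48 h 0 members were called with limma, and 11 had an unadjusted p under 0.05. The background was 0.359% of all genes tested (0.355% rises, 0.00433% falls) and 0.147% of the other genes with the same minimum (0.141% and 0.0064%).

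Potri.016G121600.v3.1 had the highest rise at 48 and 120 h. It stood at 5.98, 2.69 and 7.66 FPKM at 0 h, at 33.0, 42.5 and 50.8 at 48 h, at 58.4, 22.0 and 41.9 at 96 h, and at 74.5, 40.7 and 32.6 at 120 h. All 9 later libraries were above all 3 at 0 h. Relative to 0 h the log2 change was 2.81 at 48 h (SE 0.54, adjusted p = 0.0144), 2.68 at 96 h (SE 0.50, adjusted p = 0.00689) and 2.96 at 120 h (SE 0.51, adjusted p = 0.00405). The call at 48 h ended without 48 h replicate 3 (adjusted p = 0.0573, range over its alternatives 1.68e-05 to 0.0573).

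Potri.016G131600.v3.1 rose and was spread out at the last time. It had 11.8, 5.69 and 5.21 FPKM at 0 h, 44.8, 38.8 and 36.3 at 48 h, 63.0, 65.0 and 49.6 at 96 h, and 12.7, 52.6 and 18.0 at 120 h. At 96 h, where its rise was the highest of the members, the log2 change was 2.88 (SE 0.53, adjusted p = 0.0065). At 48 h it was 2.33 (SE 0.57, adjusted p = 0.0396), a call that ended in 14 of 23 alternative fits. Among them were median ratio scaling (adjusted p = 0.103) and quantile normalization (adjusted p = 0.0854). The omission of any 1 library at 0, 48 or 96 h also ended it (adjusted p = 0.0501 to 0.187, range over its alternatives 0.000155 to 0.187).

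Potri.011G078200.v3.1 was second by rise at 120 h, from a low level. It had 3.52, 1.13 and 2.45 FPKM at 0 h, 1.93, 3.09 and 4.41 at 48 h, 5.45, 4.45 and 9.85 at 96 h, and 11.9, 6.74 and 11.2 at 120 h. The groups at 0 and 120 h did not overlap, and the log2 change at 120 h was 1.73 (SE 0.46, adjusted p = 0.0243). The call ended without any 1 of the libraries at 0 h or without 120 h replicate 1 or 3 (adjusted p = 0.0535 to 0.0811, range over its alternatives 0.000256 to 0.0811).

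**Figure D5:**
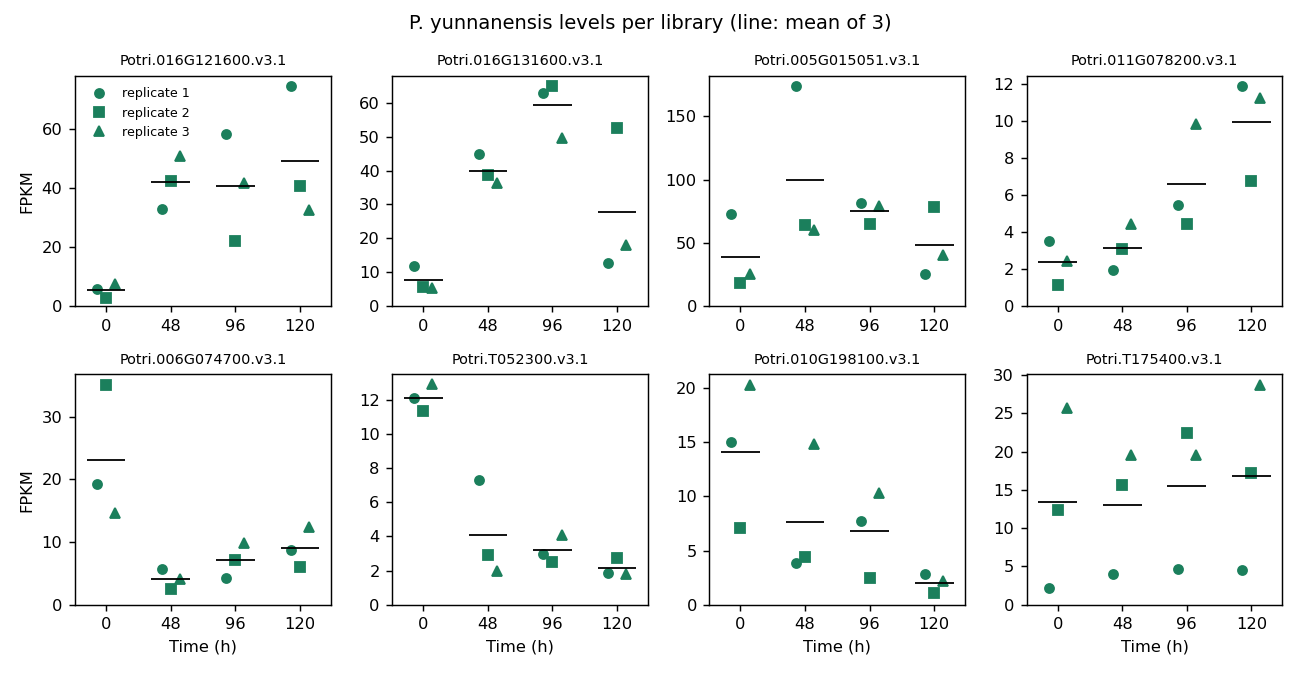
FPKM per P. yunnanensis library at 0, 48, 96 and 120 h for 8 members, with the replicate number as the symbol and the mean of 3 as a line. The upper row shows the 3 named rising members and Potri.005G015051.v3.1, and the lower row 3 falling members and Potri.T175400.v3.1, whose replicate 1 is the lowest at each time, at 2.14 to 4.73 FPKM.

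The remaining member that rose at 48 h changed by a smaller and more even step. It had 10.1, 11.2 and 10.5 FPKM at 0 h and between 19.4 and 22.3 FPKM in all 9 later libraries. Its log2 changes were 0.86, 0.90 and 0.95 at 48, 96 and 120 h (adjusted p = 0.0251, 0.00856 and 0.00610). Median ratio scaling ended all 3 calls (adjusted p = 0.105, 0.164 and 0.131), as did quantile normalization (adjusted p = 0.0668, 0.0838 and 0.0585). The call at 48 h also ended with the replicate number as a block (adjusted p = 0.0571), in a fit of the 6 compared libraries alone, and on omitting 0 h replicate 1 or 3 or 48 h replicate 2 or 3 (range over these and the other fits 0.00184 to 0.119). Its changes were all under 1 on the log2 scale.

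Among the falls, Potri.006G074700.v3.1 was lowest at 48 h. It had 19.3, 35.1 and 14.6 FPKM at 0 h, 5.77, 2.49 and 4.12 at 48 h, 4.22, 7.19 and 9.86 at 96 h, and 8.80, 5.996 and 12.3 at 120 h. All later libraries were below those at 0 h, and its log2 change was -2.19 at 48 h (SE 0.50, adjusted p = 0.0287) and -1.54 at 96 h (SE 0.46, adjusted p = 0.0480). The first of these calls ended with the replicate number as a block (adjusted p = 0.0604) and without any 1 of the libraries at 0 h or 48 h replicate 2 or 3 (adjusted p = 0.0742 to 0.0883, range over its alternatives 0.00011 to 0.0883). The call at 96 h ended in 14 of 23 alternative fits, the replicate block among them (adjusted p = 0.0519). It reached an adjusted p of 0.155 without 0 h replicate 2 (range over its alternatives 0.00162 to 0.155).

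Potri.T052300.v3.1 and Potri.T052366.v3.1 were the only members directly next to each other among the listed identifiers with a number. Both carry the letter T. Potri.T052300.v3.1 had 12.1, 11.3 and 12.9 FPKM at 0 h, 7.29, 2.91 and 2.00 at 48 h, 2.99, 2.53 and 4.10 at 96 h, and 1.89, 2.76 and 1.80 at 120 h. Its log2 changes were -1.66 at 96 h (SE 0.41, adjusted p = 0.0237) and -2.07 at 120 h (SE 0.42, adjusted p = 0.00829), with no overlap with 0 h at any later time. The 96 h call ended without any 1 of the libraries at 0 h or 96 h replicate 2 (adjusted p = 0.0502 to 0.105, range over its alternatives 0.000213 to 0.105). Potri.T052366.v3.1 had 18.0, 15.4 and 18.1 FPKM at 0 h and 7.44 to 13.4 FPKM in the later libraries. Its log2 change was -0.81 at 120 h (SE 0.29, adjusted p = 0.0683), which did not pass the test.

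Potri.010G198100.v3.1 had the deepest fall at 120 h. It had 15.0, 7.09 and 20.3 FPKM at 0 h, 3.81, 4.39 and 14.8 at 48 h, 7.76, 2.47 and 10.3 at 96 h, and 2.85, 1.09 and 2.18 at 120 h. The libraries at 48 and 96 h overlapped with those at 0 h and those at 120 h did not. The log2 change at 120 h was -2.25 (SE 0.67, adjusted p = 0.0377). Omitting 0 h replicate 1 or 3, omitting 120 h replicate 1 or 3, or testing unfiltered genes ended the call (adjusted p = 0.0557 to 0.159, range over its alternatives 0.000704 to 0.159).

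A member that was singled out after its values were seen differed between replicate numbers rather than times. Potri.T175400.v3.1 had 2.14, 12.4 and 25.7 FPKM in replicates 1, 2 and 3 at 0 h, 3.98, 15.7 and 19.5 at 48 h, 4.73, 22.4 and 19.6 at 96 h, and 4.61, 17.2 and 28.7 at 120 h. Replicate 1 was the lowest at all 4 times and under all 8 other libraries. In a limma test of the replicate number, with the times as group means, it was the only member called (1 of 133, 0.752%; adjusted p = 0.0112), beside 0.0303% of all genes tested (7 genes) and 0.0256% of the other genes with the same minimum (4 genes). The member Potri.T175500.v3.1, with 1 listed identifier between them, had 11.2 to 27.9 FPKM over the 12 libraries and was not called in that test (adjusted p = 0.241). The labels do not say what the replicate number marks.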

How the data were processed

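RNA of P. yunnanensis and P. davidiana stems was measured in 24 libraries, grouped by the species, time and replicate number in their titles. The authors deposited 1 table of FPKM values, per the file headers. Which tools aligned and counted the fragments, and on which build, those headers and the labels used here do not give. The numbered identifiers named here begin with Potri and end in v3.1. Whether those gene models are nearer in sequence to either species was not tested. All columns were assigned to a library. Relative depth is the most frequent ratio, across genes, of values between 0.03 and 0.3 FPKM. As read numbers are unknown, precision is given by the replicates only.

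The members and lists were chosen with earlier results of these data known. Genes reaching 1 FPKM in 3 or more P. yunnanensis libraries entered limma 3.58.1 (R 4.3.3) as log2(FPKM + 1), with 1 mean per time, 8 residual degrees of freedom, a variance trend and weights per time (0.514, 0.933, 1.50 and 1.39 at 0, 48, 96 and 120 h). P. davidiana libraries were left out, since residuals of exactly 0 would narrow the members' spread. P-values were adjusted by Benjamini-Hochberg over all genes tested. A log2 change on this scale understates that of low genes. Named members are the 10 highest by mean, at most 2 of the highest rises and 2 of the deepest falls per time without overlap, since no names are paired with identifiers, the 3 steadiest, those next to the thresholds and those in the longest run of identifiers. Same-numbered libraries were not treated as paired. After seeing the data, 4 views were added: the test of the replicate number, the distances of 10 identifiers, the split by level, and the rescaled times of highest level. The fit was also run on simulated independent normal values without replicate structure, and the outcome is not reported here. Python 3.11.15, numpy 2.4.6, pandas 2.3.3 and matplotlib 3.10.9 were used.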

Additional observations from a re-analysis of the deposited data

How the results depend on the processing

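The number of members was 73 with a minimum of 2 FPKM and 23 with one of 5 FPKM in all P. yunnanensis libraries, 192 with 0.5 FPKM, 184 with up to 0.1 FPKM allowed in P. davidiana, and 133 to 150 with 1 of the 24 libraries left out. The count of changed members at 48, 96 and 120 h against 0 h was 18, 41 and 47 when the P. davidiana libraries were kept in the fit without weights, where the members' zeros add residuals of exactly 0. These were 13.5%, 30.8% and 35.3% of members, beside 15.6%, 27.4% and 36.1% of all genes in that fit, so the members' share was above the background at 96 h there. The count between 48 and 120 h was then 2 (1.5%, beside 1.87% of all genes). Without weights the count was 9 at 48 h (6.77%, beside 9.49%) and 20 at 120 h (15%, beside 27.9%). From the 6 compared libraries alone it was 6 at 96 h (4.51%, beside 9.12%) and 7 at 120 h (5.26%, beside 15.2%). Median ratio scaling and quantile normalization each gave 2 at 48 h (1.5%, beside 4.59% and 5.26%). No filter on low values gave 7 at 96 h (5.26%, beside 8.04%). With the replicate block it was 2 at 48 h, where the block ended the calls of Potri.006G074700.v3.1 and of the member with the even step. It also ended that of Potri.006G074700.v3.1 at 96 h, and no other call of a named change. Whether the numbers pair the libraries is not settled by these values. Over all genes tested, deviations of same-numbered libraries correlated at -0.413 to 0.239 for 48 h against 0 h and -0.199 to 0.285 for 96 h against 0 h. The range was -0.189 to -0.000886 for 120 h against 0 h and -0.244 to 0.341 for 120 h against 48 h. Over the members alone the ranges were -0.223 to 0.355, -0.0934 to 0.442, 0.0212 to 0.169 and -0.193 to 0.337, in that order. Between 96 and 48 h the deviations correlated at 0.177 to 0.323 over all genes tested and at 0.104 to 0.33 over the members. Between 120 and 96 h the ranges were 0.0351 to 0.399 and 0.108 to 0.467. These times were not compared with each other. Leaving out each P. yunnanensis library in turn gave 0 to 4 members at 48 h and 5 to 10 at 96 h. It gave 3 to 31 at 120 h and 0 to 4 between 48 and 120 h. Over all genes tested, the shares in these fits ran from 2.01% to 5.06%, 6.01% to 13.2%, 7.57% to 31.6% and 0% to 9.15%. Where no construction is named, the cause was not tested. The 11 named changes kept their direction in all 24 alternatives each, and the call was lost in 49 of these 264 values. One alternative, a minimum log2 change of 1 set on the main fit, is no refit, and all 11 passed it by their size. The other 23 were refits. They include the fit with the P. davidiana libraries, which narrows the members' spread and enters the kept calls and the printed ranges of adjusted p. Depth is known only relative to 1 library, so zeros in P. davidiana carry no limit.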
